A study of Mus musculus with 12 samples.

Results

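The 9 genes described here carry the cell's answer to foreign or misplaced RNA and to type I interferon. They are the sensors Ifih1, Ddx58 and Dhx58, the transcription factors Irf3, Irf7, Irf1, Irf9 and Stat2, and the receptor chain Ifnar1. They were taken by name, as the rows whose Entrez ID maps to these symbols, from a list drawn up with earlier results of these data known. All 9 were present among the 27179 genes of the table, and all 9 passed the filter on low values that left 13939 genes for testing. Each rose in cells labelled as an Actr3 knockout, by 0.41 to 2.30 on the log2 scale. Each was lower again when those cells had been given ciliobrevin D.

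The cells were mIMCD3, a line of mouse kidney cells from the inner medullary collecting duct, grown for 48 h to confluence with 10% fetal calf serum (FCS) and then without serum for 24 h. Of the 4 groups of 3 libraries, the control is the line labelled Ctrl., with no edit named, and the Actr3 KO is the line KO-1. The group labelled dKO is a line with both Actr3 and Ift88 knocked out. The last group is KO-1 again, with ciliobrevin D (0.5 µM), which inhibits cytoplasmic dynein, added to the starvation medium, where the other cells got the solvent. The product of Actr3 belongs to the Arp2/3 complex, which starts branched actin filaments. Ift88 encodes a subunit of the intraflagellar transport machinery that builds cilia. Per the labels every genotype was 1 line, so a difference between genotypes cannot be told apart from a difference between lines. Whether a group's libraries are separate cultures is not stated, so the p-values measure the spread between these libraries, which may be technical. The labels give all 3 control libraries as line Ctrl.-1, but 1 control column is named Ctrl.-2 repl.-1, which matches no title, so the control may hold a library of another line. It is listed last among the control values below, and without it the comparisons with control called the same number of the 9 genes.

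RIG-I (encoded by Ddx58) and MDA5 (Ifih1) are helicases that bind double-stranded RNA or RNA without the usual cap in the cytoplasm and signal through the mitochondrial adaptor MAVS. The kinases TBK1 and IKKε then phosphorylate IRF3 and IRF7, which enter the nucleus and switch on interferon genes. Secreted type I interferon binds a receptor of IFNAR1 and IFNAR2, whose kinases JAK1 and TYK2 activate STAT proteins, STAT2 among them. STAT2 and IRF9 are parts of the complex ISGF3, which binds interferon-stimulated response elements (ISRE). Several of the 9 genes are themselves interferon-stimulated, so the pathway feeds back on its own parts.

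RefSeq promoter windows (build GRCm38.p6, 250 bases before to 50 bases after a start site) were held for 8 of the 9 genes, all but Dhx58. They were searched on both strands for the ISRE letters, GAAA and again GAAA with any 2 bases between (on the other strand TTTC and TTTC, spaced alike), and for the letters TTCNNNGAA of a gamma-activated site, an element bound by STAT dimers. None of the genes' windows held both motifs. The ISRE letters occurred for 3 of the 8 genes (37.5%), against 3.99% of 27025 genes and 3.44% of 32851 windows. The letters of the gamma-activated site occurred for 2 of the 8 (25.0%), against 9.55% of genes and 8.3% of windows. A match describes the letters only and is not a binding site, and a window without one says nothing of the factor. The stretches before the gene start of Stat2 and Irf1 are shown because each holds 1 match, at -222 and -90 from the start, and that of Irf7 because its RNA changed most while its window held none. Capitals mark the match, and each is printed 5′ to 3′ along the gene's own strand.
Stat2, chr10:128270248-128270497, plus strand: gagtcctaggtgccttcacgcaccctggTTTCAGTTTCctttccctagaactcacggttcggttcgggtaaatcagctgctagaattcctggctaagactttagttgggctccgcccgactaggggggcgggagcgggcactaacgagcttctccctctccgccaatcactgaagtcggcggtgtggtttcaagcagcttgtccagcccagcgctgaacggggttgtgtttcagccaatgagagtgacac
Irf1, chr11:53769764-53770013, plus strand: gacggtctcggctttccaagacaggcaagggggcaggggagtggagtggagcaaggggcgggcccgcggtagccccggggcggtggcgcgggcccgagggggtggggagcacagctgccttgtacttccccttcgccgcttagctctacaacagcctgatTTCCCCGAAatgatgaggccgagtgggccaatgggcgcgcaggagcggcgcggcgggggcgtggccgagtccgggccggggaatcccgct
Irf7, chr7:141266500-141266674, minus strand: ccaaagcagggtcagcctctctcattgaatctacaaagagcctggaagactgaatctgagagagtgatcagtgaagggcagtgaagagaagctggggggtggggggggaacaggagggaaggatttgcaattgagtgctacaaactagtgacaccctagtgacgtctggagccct

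The matches of the remaining genes lie in or beside annotated exons, so only 30 bases round each are shown. The first letter of the match is at +33 in Ifih1, at +3 in Ddx58 and at -5 in Ifnar1. The first pair holds the ISRE letters and the last one those of the gamma-activated site.
Ifih1, chr2:62646206-62646235, minus strand: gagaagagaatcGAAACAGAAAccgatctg
Ddx58, chr4:40239804-40239833, minus strand: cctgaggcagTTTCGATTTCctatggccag
Ifnar1, chr16:91485199-91485228, plus strand: gggcgggggcgTTCACGGAAggggcggggc

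Libraries held 28902562 to 38077987 reads as recovered from the deposited values. All values below are normalised read counts per library, meaning reads divided by a size factor of the library, and none is a length-corrected level unless stated. Actr3 RNA was 8336 ± 293 (SD, n = 3) in control, 1218 ± 111 in the Actr3 KO libraries, 871 ± 38.6 in dKO and 1573 ± 180.2 in the treated cells. Ift88 RNA was 604 ± 29.8 in the libraries labelled dKO and 617 ± 34.2 in Actr3 KO (log2 difference -0.03, adjusted p = 0.725), so its level does not check that label, and which part of the gene was edited is not given. Of 14 epithelial and collecting duct markers, 13 passed the filter, with sums of 124343 to 133385 in control and 92457 to 99778 in the Actr3 KO libraries, 86609 to 94593 in dKO and 92792 to 96816 in the treated cells. Among them the keratin gene Krt19 fell by 1.77 on the log2 scale in Actr3 KO and rose by 1.65 with ciliobrevin D. Krt8 and Krt18 fell by 1.38 and 1.29 in Actr3 KO, and Epcam fell by 0.84. Krt7, Pax2, Pax8, Hoxb7 and Aqp3 were also lower there. Cdh16 rose by 0.95 and Gata3 was higher too, while Cdh1 and Scnn1a had an adjusted p over 0.05. With ciliobrevin D, Krt8, Krt18 and Pax8 were also higher. Cdh1 (-1.15), Cdh16 (-0.51), Krt7 (-0.49) and Pax2 (-0.42) were lower with it, and the others had an adjusted p over 0.05. Aqp2, the water channel of principal cells, had no read in control and Actr3 KO. The white blood cell markers summed to 3112 to 3613 in control, 4249 to 4607 in the Actr3 KO libraries, 3251 to 3376 in dKO and 1186 to 1509 in the treated cells. This sum was higher in Actr3 KO than in control and lower with ciliobrevin D, as the 9 genes were, through Csf1r. Of 10 such markers 3 passed the filter, and the other two did not follow the sum: Ptprc, the pan-leukocyte marker, fell by 3.38 in Actr3 KO and rose by 2.39 with ciliobrevin D at 1.66 to 26.3 on average, and Cd68 differed by 0.00 (adjusted p = 0.995) and rose by 1.04. Adgre1, Lyz2, Cd3e and Tyrobp were at or near 0 in all groups. Markers of endothelium and fibroblasts were low, with sums of at most 25.9 and 182. The proximal tubule sum was also highest in Actr3 KO, through Lrp2, with Slc34a1 at 0. The part of these markers in the results was not tested. In bulk RNA, more cells that express a gene and more RNA per cell cannot be told apart.

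Changes are limma log2 fold changes on the log2(value + 1) scale, with p-values adjusted by Benjamini-Hochberg over all 13939 genes, and a gene was called at an adjusted p under 0.05. In Actr3 KO against control, 9 of 9 genes were called and all were higher, where 69.8% of all tested genes were called and 34.4% were called higher. A change of at least 2-fold was reached by 5 of 9, against 6.07% of all genes. Most genes of the table differed between these lines, so a call alone does not set a gene apart from the rest. Their median log2 fold change was 1.08, against 0.00 over all genes. In none of the 9 did the 3 Actr3 KO values overlap the 3 control values, which held for 36% of all genes in that direction.

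**Figure D1:**
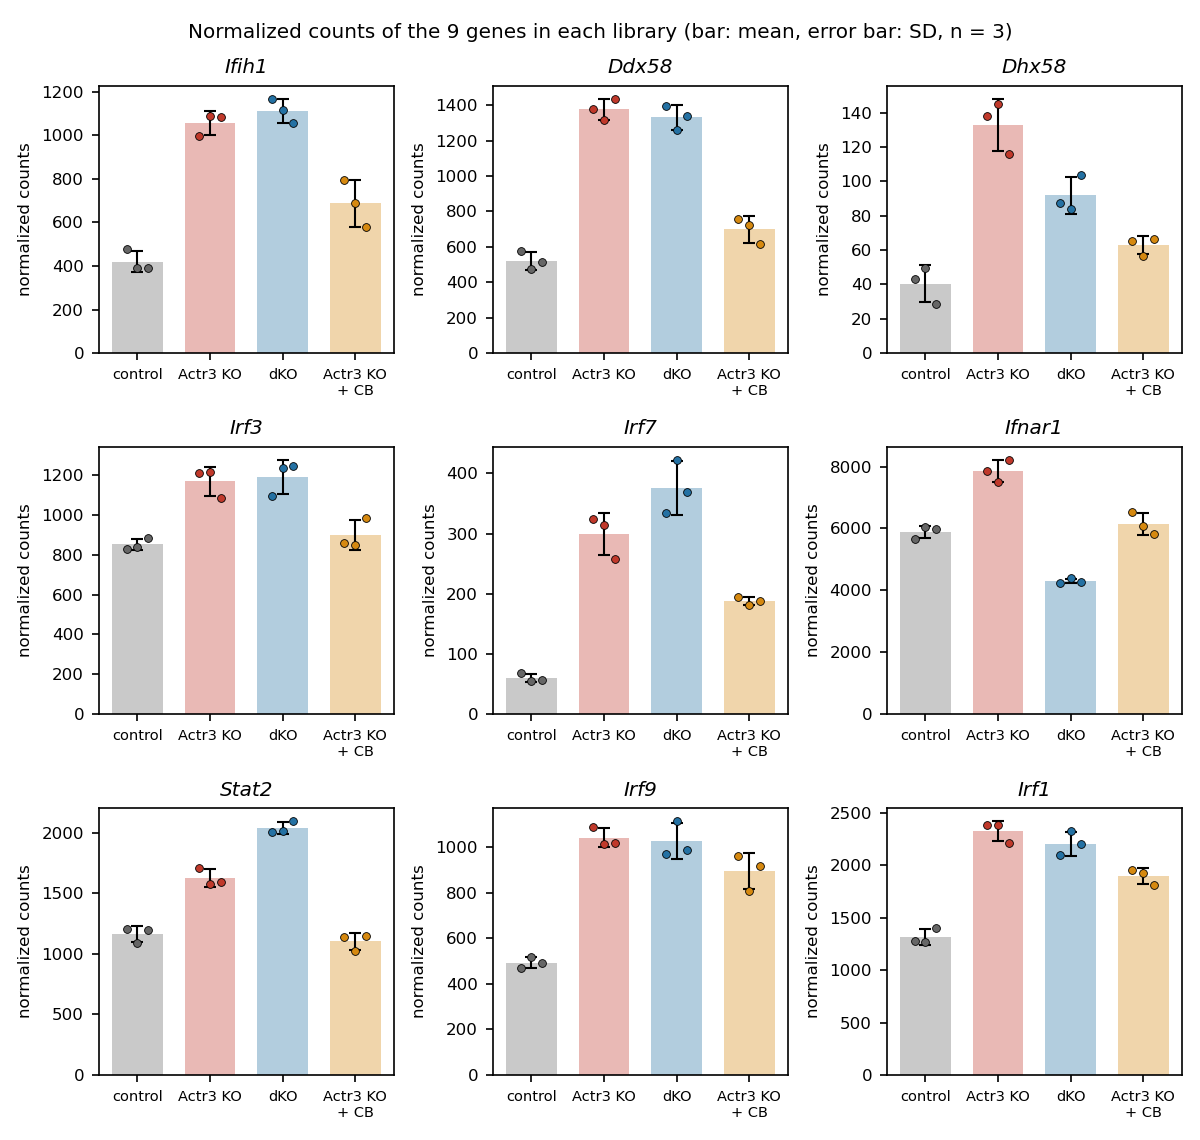
Normalised read counts of the 9 genes (vertical axis, linear scale, 1 panel per gene) in the 12 libraries, grouped as control, Actr3 KO, dKO and Actr3 KO with 0.5 µM ciliobrevin D (CB). Points are libraries, filled bars are group means and error bars are SDs. In every panel the 3 Actr3 KO points sit above the 3 control points and above the 3 ciliobrevin D points.

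Between dKO and Actr3 KO the 9 genes did not share a direction. Stat2 and Irf7 rose, Ifnar1 and Dhx58 fell, and Ifih1, Ddx58, Irf3, Irf9 and Irf1 were not called. That is 4 of 9 called, where 65.7% of all genes were called, 32.5% higher and 33.2% lower, and the share is below that background. The median of the 9 was -0.02, against -0.01 over all genes. Without the dKO library of replicate 2 the count was 2 of 9, with Irf7 and Dhx58 no longer called. With chromosome medians subtracted, Stat2 was not called either (log2 difference -0.07).

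With ciliobrevin D, against the same line without it, 9 of 9 genes were called lower, where 65.5% of all genes were called and 32.9% were called lower. Only Dhx58 fell at least 2-fold (1 of 9, against 3.48% of all genes). The median of the 9 was -0.56, against -0.02 over all genes. In none of them did the groups overlap, as for 33.9% of all genes in that direction. The comparisons with control, with dKO and with the treated cells all use the same 3 Actr3 KO libraries, so a high or low value in these moves each of them, and their values are given side by side only.

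**Figure D2:**
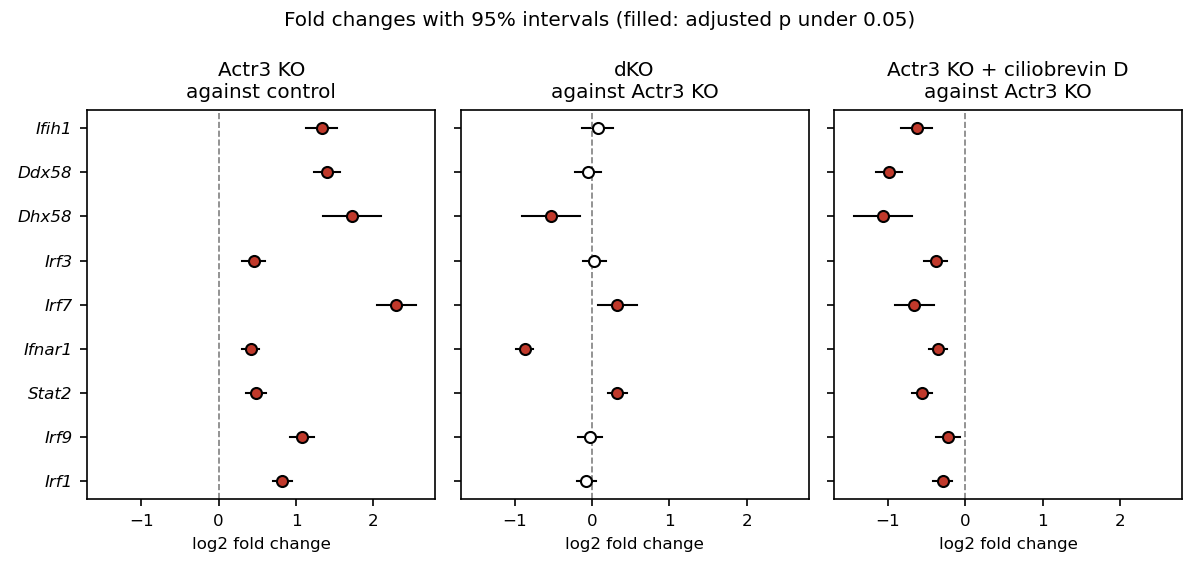
Log2 fold changes of the 9 genes (horizontal axis) in Actr3 KO against control, dKO against Actr3 KO and ciliobrevin D-treated Actr3 KO against Actr3 KO, with 95% confidence intervals from the limma fit. Filled points passed an adjusted p under 0.05 and open points did not. The 9 points lie between 0.41 and 2.30 in the first comparison, on both sides of 0 in the second and between -1.07 and -0.22 in the third.

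Among the sensors, Ifih1 encodes MDA5, which binds long double-stranded RNA (Entrez 71586, chr2:62595618-62646255, minus strand). Its values were 479, 391 and 392.2 in control, 996, 1089 and 1087 in the Actr3 KO libraries, 1167, 1116 and 1057 in dKO and 794, 688 and 581 in the treated cells. The 2 untreated knockout groups overlapped each other and lay above every other library, and the treated libraries lay between them and control. Ifih1 rose 2.52-fold in Actr3 KO (log2 fold change 1.33 ± 0.10 SE, adjusted p = 8.25e-11). In dKO it differed from Actr3 KO by 0.07 on the log2 scale (95% interval -0.12 to 0.27, adjusted p = 0.505). With ciliobrevin D it fell by 0.63 on the log2 scale (adjusted p = 6.00e-06).

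Ddx58 encodes RIG-I, which recognises short double-stranded RNA with a free triphosphate end (Entrez 230073, chr4:40203777-40239825, minus strand). It stood at 577, 476 and 515 in control, 1378, 1318 and 1437 in the Actr3 KO libraries, 1399, 1259.7 and 1338 in dKO and 758, 726 and 614 in the treated cells. As for Ifih1, the untreated knockout groups overlapped, and the treated libraries lay just above the highest control library. The rise in Actr3 KO was 2.64-fold (log2 fold change 1.40 ± 0.08 SE, adjusted p = 3.01e-12). The difference of dKO from Actr3 KO was -0.05 (95% interval -0.22 to 0.12, adjusted p = 0.611). With ciliobrevin D, Ddx58 fell by 0.98 on the log2 scale (adjusted p = 9.70e-10), the second largest fall of the 9 genes.

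Dhx58 encodes LGP2, a related helicase without the signalling domains of the others, which modulates them (Entrez 80861, chr11:100694884-100704271, minus strand). Its values were 43.4, 49.6 and 28.5 in control, 138, 145 and 116 in the Actr3 KO libraries, 87.4, 84.2 and 104 in dKO and 65.0, 56.8 and 66.6 in the treated cells. These rest on 137, 400, 291 and 160 reads over the 3 libraries of each group. The 4 groups did not overlap, and Actr3 KO was highest. Dhx58 rose 3.30-fold in Actr3 KO (log2 fold change 1.72 ± 0.18 SE, adjusted p = 3.30e-08) and fell by 1.07 on the log2 scale with ciliobrevin D (adjusted p = 2.70e-05). It fell by 0.53 in dKO against Actr3 KO (adjusted p = 0.0144), a call that was lost without Actr3 KO replicate 2 (log2 difference -0.46), without dKO replicate 2 (-0.47) and with quantile normalisation (-0.39). The antisense gene Dhx58os overlaps Dhx58, and whether reads were counted by strand is not given, so reads of the pair cannot be told apart.

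Irf3 encodes the factor that is present before infection and acts first once phosphorylated (Entrez 54131, chr7:44997648-45002848, plus strand). Its values were 831, 839 and 886 in control, 1209, 1215 and 1085 in the Actr3 KO libraries, 1093, 1237 and 1246 in dKO and 859, 851 and 984 in the treated cells. Both untreated knockout groups lay above all control and treated libraries, and the latter overlapped each other. Irf3 rose 1.37-fold in Actr3 KO (log2 fold change 0.46 ± 0.07 SE, adjusted p = 8.78e-06), among the smallest rises of the 9. It fell by 0.38 on the log2 scale with ciliobrevin D (adjusted p = 8.31e-05). The difference of dKO from Actr3 KO was 0.03 (95% interval -0.12 to 0.18, adjusted p = 0.757). Irf3 overlaps Bcl2l12 on the other strand, with the same limit as for Dhx58.

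Irf7 encodes the interferon-inducible partner of IRF3, scarce in most resting cells and needed for a full interferon response (Entrez 54123, chr7:141263183-141266499, minus strand). It stood at 67.6, 55.0 and 56.9 in control, 324, 314 and 258 in the Actr3 KO libraries, 335, 423 and 369 in dKO and 195, 181 and 188 in the treated cells. No 2 groups overlapped, with control lowest and dKO highest. Its 4.92-fold rise in Actr3 KO was the largest of the 9 genes (log2 fold change 2.30 ± 0.12 SE, adjusted p = 6.28e-13). With ciliobrevin D it fell by 0.66 on the log2 scale (adjusted p = 5.49e-05), to a level still 3.12-fold above control (adjusted p = 1.70e-10). In dKO it rose by 0.33 over Actr3 KO (adjusted p = 0.0194), a call that was lost without Actr3 KO replicate 3 (log2 difference 0.23) or dKO replicate 2 (0.24).

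Ifnar1, the chain of the type I interferon receptor that pairs with TYK2 (Entrez 15975, chr16:91485032-91510523, plus strand), was the only one of the 9 genes lower in dKO than in control. Its values were 5671, 6035 and 5983 in control, 7853, 7502 and 8222 in the Actr3 KO libraries, 4240.3, 4386 and 4275 in dKO and 6535, 6091 and 5822 in the treated cells. Actr3 KO was highest and dKO lowest, both without overlap, and the control and treated values overlapped. The rise in Actr3 KO was the smallest of the 9 (1.33-fold, log2 fold change 0.41 ± 0.05 SE, adjusted p = 6.05e-07). In dKO, Ifnar1 fell by 0.87 against Actr3 KO (SE 0.05, adjusted p = 9.40e-12) and by 0.45 against control (adjusted p = 1.78e-07), both on the log2 scale. The difference from control was not called once the median of its chromosome was subtracted (-0.07). With ciliobrevin D it fell by 0.35 (adjusted p = 5.89e-06).

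Stat2 encodes the STAT of ISGF3 that binds IRF9 (Entrez 20847, chr10:128270498-128292853, plus strand). It stood at 1204, 1087 and 1195 in control, 1709, 1577 and 1593 in the Actr3 KO libraries, 2005, 2020.0 and 2101 in dKO and 1139.6, 1025 and 1152 in the treated cells. Control and treated values overlapped, Actr3 KO lay above both, and dKO lay above Actr3 KO. Stat2 rose 1.40-fold in Actr3 KO (log2 fold change 0.48 ± 0.06 SE, adjusted p = 4.42e-07) and by a further 0.33 on the log2 scale in dKO (adjusted p = 7.27e-05). The rise in dKO over Actr3 KO was no larger than the median of its chromosome, and with that subtracted it was -0.07. With ciliobrevin D it fell by 0.56 (adjusted p = 7.15e-08).

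Irf9 encodes the DNA-binding subunit of ISGF3 (Entrez 16391, chr14:55603985-55610030, plus strand). Its values were 470.0, 519 and 493 in control, 1090.4, 1014 and 1021 in the Actr3 KO libraries, 972, 1116 and 989 in dKO and 963, 809 and 917 in the treated cells. All 9 knockout libraries lay above all control libraries, and the treated values lay below those of Actr3 KO. Irf9 rose 2.107-fold in Actr3 KO (log2 fold change 1.08 ± 0.07 SE, adjusted p = 5.05e-11). The difference of dKO from Actr3 KO was -0.02 (95% interval -0.18 to 0.13, adjusted p = 0.793). Its fall with ciliobrevin D was the smallest of the 9 (-0.22 on the log2 scale, adjusted p = 0.0134). That call was lost without Actr3 KO replicate 1 (-0.19) or the treated replicate 2 (-0.15).

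Irf1 encodes a factor induced by interferon gamma that drives antigen presentation genes and can act without ISGF3 (Entrez 16362, chr11:53770014-53778374, plus strand). It stood at 1281, 1269 and 1407 in control, 2388, 2382 and 2214 in the Actr3 KO libraries, 2098, 2326 and 2202 in dKO and 1960.3, 1929 and 1817 in the treated cells. All knockout libraries again lay above control, dKO overlapped Actr3 KO, and the treated values were the lowest of the 3 knockout groups. Irf1 rose 1.77-fold in Actr3 KO (log2 fold change 0.82 ± 0.06 SE, adjusted p = 8.43e-11) and fell by 0.29 with ciliobrevin D (adjusted p = 1.78e-04). The difference of dKO from Actr3 KO was -0.08 (95% interval -0.20 to 0.05, adjusted p = 0.260). The predicted gene Gm17334 overlaps Irf1 on the other strand, with the same limit on counting.

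Against control, the dKO line held 8 of the 9 genes higher and Ifnar1 lower, where 67.1% of all genes were called, 32% higher and 35.1% lower. The largest change was that of Irf7 at 2.63 on the log2 scale, followed by Ifih1 at 1.41 and Ddx58 at 1.35. The ciliobrevin D-treated cells still held 6 of 9 genes above control, where 65.1% of all genes were called and 33% were called higher. These were Irf7 (1.64), Irf9 (0.86), Ifih1 (0.70), Dhx58 (0.65), Irf1 (0.53) and Ddx58 (0.42), all log2 fold changes. The others were not called. For Irf3 the 95% interval of the log2 difference was -0.08 to 0.22 (adjusted p = 0.381), for Ifnar1 -0.05 to 0.17 (adjusted p = 0.337) and for Stat2 -0.20 to 0.05 (adjusted p = 0.303). Each of these comparisons reuses libraries of the first 3.

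Setting the treated Actr3 KO against dKO compares the line given ciliobrevin D with the line labelled as lacking Ift88 as well. Here 8 of 9 genes were lower in the treated cells and Ifnar1 was higher, where 73.4% of all genes were called, 36.3% lower and 37% higher. The differences ran from -0.99 for Irf7, through -0.93 for Ddx58 and -0.89 for Stat2, to 0.51 for Ifnar1, on the log2 scale. For Stat2, the chromosome 10 median was -0.39 in this comparison, and with it subtracted the difference was -0.50 (adjusted p = 2.76e-07). The smaller differences of Dhx58 (-0.54) and Irf9 (-0.20) were each lost without 1 library: Dhx58 without dKO replicate 3 (-0.45), and Irf9 without dKO replicate 2 (-0.13) or the treated replicate 2 (-0.12). That of Irf9 was also lost with quantile normalisation (-0.15). With chromosome medians subtracted, the differences of Ifnar1 (0.09) and Irf9 (-0.09) were not called.

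Levels between genes can be compared only per length, here per kilobase of the joined exons of the GENCODE M21 basic set. On that scale Ifnar1 was the most abundant of the 9 in every group, at 1508 ± 50.3 normalised reads per kilobase in control (SD, n = 3). Irf1 (395 ± 23.0) and Irf3 (389 ± 13.6) came next in control and did not differ beyond their spread, followed by Stat2 (264 ± 14.8), Irf9 (159 ± 7.88) and Ddx58 (135 ± 13.2). Ifih1 (76.9 ± 9.20), Irf7 (25.0 ± 2.84) and Dhx58 (16.8 ± 4.51) closed the order. In Actr3 KO the order was Ifnar1 (2010.4), Irf1 (698), Irf3 (534), Stat2 (369.9), Ddx58 (356), Irf9 (336), Ifih1 (193), Irf7 (125) and Dhx58 (55.1). Neighbours overlapped there within 1 SD for Stat2 (± 16.4) with Ddx58 (± 15.3) and for Ddx58 with Irf9 (± 13.7). Even in dKO, where Irf7 reached 157 per kilobase, it stayed below Ifih1 at 204.

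Some changes in dKO were shared with whole chromosomes. In dKO against Actr3 KO, the median log2 fold change was -0.41 over the 431 tested genes of chromosome 16, which holds Ifnar1, and 0.40 over the 655 of chromosome 10, which holds Stat2. It was 0.16 over the 420 genes of chromosome 14, which holds Irf9, while the chromosomes of the other 6 genes had medians from -0.06 to 0.03. With chromosome medians subtracted, Ifnar1 was still lower in dKO than in Actr3 KO (log2 difference -0.46, adjusted p = 1.85e-07), but no longer lower than control (-0.07, adjusted p = 0.263). For Stat2 the difference between dKO and Actr3 KO was then not called (adjusted p = 0.324). Irf9, not called before, was then lower (-0.19, adjusted p = 0.0330). Relative to its chromosome, Stat2 in dKO stayed above control (0.42, adjusted p = 5.12e-06).

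**Figure D3:**
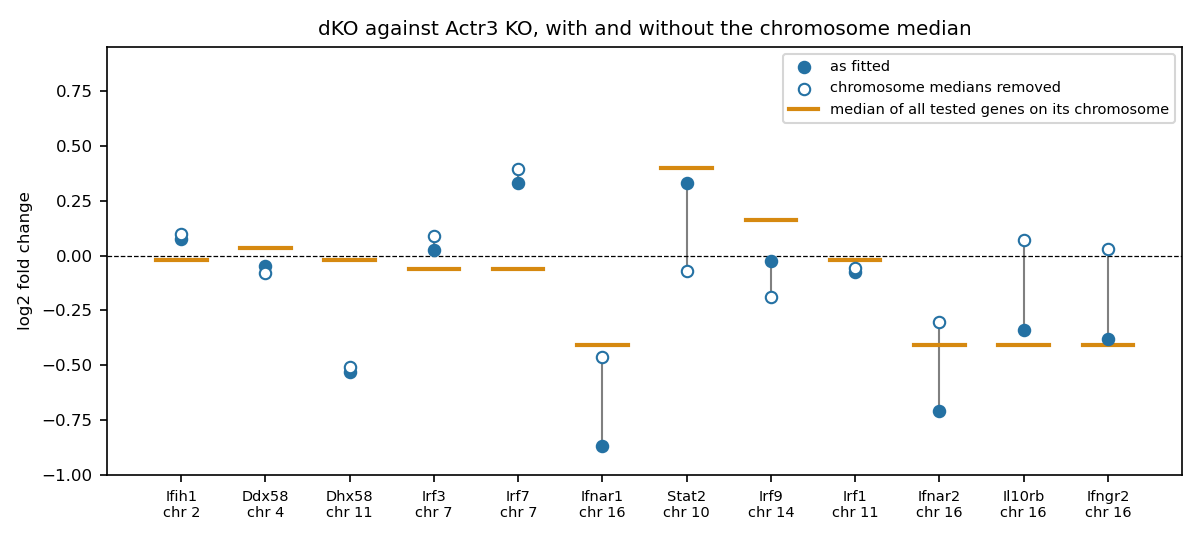
Log2 fold change in dKO against Actr3 KO of the 9 genes and of Ifnar2, Il10rb and Ifngr2 (filled points). Bars are the median of all tested genes on the same chromosome. Open points, joined to the filled ones by a line, are the values with chromosome medians removed. Ifnar1 lies below the chromosome 16 median of -0.41, and Stat2 at 0.33 lies close to the chromosome 10 median of 0.40.

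Ifnar1 sits in a run of receptor genes on chromosome 16, in the order Ifnar2, Il10rb, Ifnar1 and Ifngr2. IFNAR2 is the other chain of the type I receptor, IL10RB is shared by the lambda interferon and interleukin 10 receptors, and IFNGR2 belongs to the interferon gamma receptor. All 4 were lower in dKO than in Actr3 KO, by log2 fold changes of -0.71, -0.34, -0.87 and -0.38 in that order. After the chromosome median was subtracted, Ifnar2 (-0.30, adjusted p = 2.71e-05) and Ifnar1 were still called, and Il10rb (0.07, adjusted p = 0.366) and Ifngr2 (0.03, adjusted p = 0.728) were not.

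The rest of the pathway was read from lists of related genes. Of 18 genes of RNA and DNA sensing and their adaptors, 16 were tested, and 9 were higher and 2 lower in Actr3 KO against control, where 34.4% of all tested genes were called higher and 35.4% lower. Ikbke, the inducible kinase of IRF3 and IRF7, rose by 1.47 on the log2 scale, and Mavs, the adaptor of RIG-I and MDA5, by 0.58. With ciliobrevin D both fell, by 0.76 and 0.63, while Tbk1 rose by 0.53, and the list as a whole split into 6 higher and 5 lower (all genes 32.7% and 32.9%). In dKO against Actr3 KO the split was 7 higher and 3 lower (all genes 32.5% and 33.2%), among the former Myd88 (0.50), the adaptor of most Toll-like receptors. The medians of the list were 0.19, 0.12 and 0.10 in Actr3 KO against control, dKO against Actr3 KO and ciliobrevin D against none, where those of all genes were 0.00, -0.01 and -0.02.

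The interferon genes themselves had almost no reads. None of 12 ligand genes passed the filter, and all of them together had 6 reads over the 3 control libraries, 10 over those of Actr3 KO, 7 over those of dKO and 4 over the treated ones. No ligand gene exceeded 3 reads in any library, so a difference was not detectable at this depth.

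Of the 8 receptor and Janus kinase genes, 5 were higher and none lower in Actr3 KO (all genes 34.4% and 35.4%), with Ifnlr1, the lambda interferon receptor chain, at 0.77 and Tyk2 at 0.51. In dKO against Actr3 KO none was higher and 5 were lower (all genes 32.5% and 33.2%). Among these 5 are Ifnar2, Il10rb and Ifngr2 of chromosome 16, whose median was -0.41 in this comparison. Il10rb and Ifngr2 were not called once that median was subtracted. With ciliobrevin D, where 32.9% of all genes were lower and 32.7% higher, 6 were lower, Ifnlr1 most (-1.15), and only Jak1 was higher, its mean going from 4835 to 8819.7 (log2 fold change 0.87, adjusted p = 1.44e-11). The medians of the 8 were 0.24, -0.31 and -0.43 in the same order of comparisons.

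Among the other STAT and IRF genes, 13 of 14 were tested, with 8 higher and 2 lower in Actr3 KO, 4 higher and 5 lower in dKO against Actr3 KO, and 4 higher and 3 lower with ciliobrevin D. Over all genes the shares higher and lower were 34.4% and 35.4%, 32.5% and 33.2%, and 32.7% and 32.9%, and the 4 and 5 of 13 in dKO lie near these. The medians of the list were 0.28, -0.11 and -0.05. Irf4, best known from lymphocytes, rose by 1.97 in Actr3 KO at a low level (19.5 ± 6.50 to 76.8 ± 9.08). In dKO, Stat6 rose (0.59) and Stat3 fell (-0.47), and with Stat6 on chromosome 10 its difference was 0.19 after the chromosome median was subtracted.

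Of 18 tested negative regulators and nucleases, 6 were higher and 5 lower in Actr3 KO, 9 higher and 6 lower in dKO against Actr3 KO, and 7 higher and 10 lower with ciliobrevin D. The counts in Actr3 KO are near the shares of all genes (34.4% higher and 35.4% lower). In the other comparisons those shares were 32.5% and 33.2%, and 32.7% and 32.9%. The medians of the list were 0.13, 0.16 and -0.29. Usp18, the interferon-induced protease that blocks IFNAR signalling, rose by 2.12 in Actr3 KO and by a further 0.73 in dKO, and fell by 0.95 with ciliobrevin D. Adar, which edits double-stranded RNA that MDA5 would otherwise bind, rose by 0.94 in Actr3 KO and fell by 0.79 in dKO. Rnf125, a ubiquitin ligase that marks RIG-I and MDA5 for breakdown, stood at 40.6 ± 8.70 in control, 63.3 ± 1.21 in the Actr3 KO libraries, 2.22 ± 1.12 in dKO and 29.2 ± 14.3 in the treated cells. Its drop in dKO (-4.39 on the log2 scale, adjusted p = 5.22e-10) left 7 reads over 3 libraries. Socs1, an inhibitor of Janus kinases, fell by 0.96 in dKO, and the deubiquitinase gene Tnfaip3 rose by 1.12 with ciliobrevin D.

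The interferon-stimulated effectors had the largest median change of the lists in Actr3 KO. Of 29 tested of 30, 25 were higher and 2 lower in Actr3 KO, with a median log2 fold change of 1.79 against 0.00 over all genes, and 21 of them at least 2-fold higher. Of all genes, 34.4% were higher, 35.4% lower and 6.07% at least 2-fold higher. The peptide transporter gene Tap1 rose from 267 ± 16.6 to 2684 ± 93.8, and Nlrc5, the activator of MHC class I genes, from 6.48 ± 1.74 to 303 ± 21.4. With ciliobrevin D, 25 were lower and only Cxcl10, a chemokine, was higher (2.44), with a median of -0.77, where 32.9% of all genes were lower and 32.7% higher. Ifit1 and Ifit3, which encode proteins that bind viral RNA, changed by -1.57 and -1.46. For Ifit3 this was no return from a rise, as the treated cells also lay below control (-1.52 on the log2 scale). Nlrc5 was not among the genes that fell, at 5.57 above control in the treated cells and 5.37 above it in Actr3 KO. In dKO against Actr3 KO the list split into 8 higher and 11 lower (all genes 32.5% and 33.2%). Tap1 (-1.13) and the immunoproteasome gene Psmb9 (-1.55) were lower there, and Cxcl10 (1.29) and Oas1a (1.15), which senses double-stranded RNA, were higher. The ISRE letters occurred for 10 of the 22 of these effectors with a promoter window (45.5%), against 3.99% of all genes. Those of the gamma-activated site occurred for 5 of the 22 (22.7%), against 9.55% of all genes. Several effectors belong to families of close copies (Oas1a, Ifit1, Ifit3), where the counting could split reads.

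**Figure D4:**
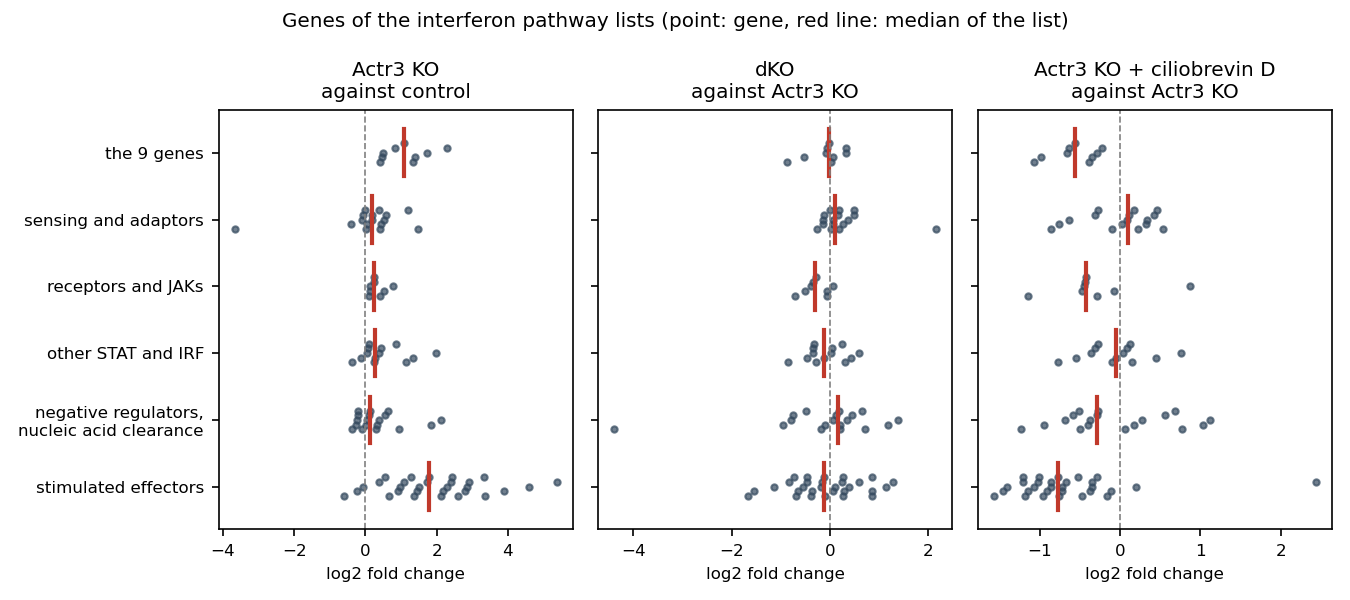
Log2 fold changes of every tested gene of the 9 and of 5 lists of pathway genes (rows) in 3 comparisons (panels), with 1 point per gene and a bar at the median of the list. The medians of the 9 genes are 1.08, -0.02 and -0.56, and those of the effectors are 1.79, -0.12 and -0.77.

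The genes nearest to each of the 9 in pattern were found from the 4 group means on the log2 scale, centred for each gene, among the other tested genes with a mean of at least 100 over the 12 libraries and no predicted or clone name, 10609 candidates for all but Dhx58, which had 10610. The measure is the root mean square difference over the 4 groups, where 0 is the same pattern. Paxx (0.0464) was the nearest gene to Ifih1, and Hoxd4 (0.0289) and Irgm2 (0.0607) were the nearest to Ddx58. Irf7 had no gene within 0.1, and its nearest were Arhgap45 (0.150) and Oas1b (0.162). Dhx58 had 1 gene within 0.1, Pik3ip1 (0.0914). The patterns of Irf3 and Ifnar1 were common ones, with 402 and 90 genes within 0.1, led by Bckdha (0.0105) and Setdb1 (0.0275). Stat2 had 80, led by H2-Ke6 (0.0183), Irf1 had 75, led by Metap1d (0.00793), and Irf9 had 19, led by Fbxo32 (0.0358). Among the 9 genes the nearest pairs were Irf9 with Irf1 (0.131) and Ifih1 with Ddx58 (0.132), and the farthest was Irf7 with Ifnar1 (1.10). With 4 group means per gene, such nearness is a description of these libraries only.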

How the data were processed

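Normalised values of 12 poly(A) RNA libraries were analysed. Per the labels' protocols, libraries were made with the NEBNext Ultra II RNA kit. The submitters' processing notes name fastp 0.23.2, HISAT2 2.2.1, featureCounts 2.0.1, DESeq2 2.11.40.7 and the builds mm10 and GRCm38; no strand setting is named. The deposited values are a signal in which the authors' counts were divided by 1 size factor per library, as 100% were whole multiples of 1 step (tolerance 0.01 reads), and reads were recovered from the steps. RefSeq GRCm38.p6 named 25275 IDs and GENCODE 18, and 1886 have no name. Libraries were grouped by title.

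The filter asked for 3 or more libraries with a value of 10 or more. Values were fitted as log2(value + 1) with limma 3.58.1 (trend, all 12 libraries, two-sided) in R 4.3.3, adjusted by Benjamini-Hochberg over all 13939 genes, for 6 comparisons. The steps were tested on simulated data. Alternatives changed the pseudocount (0.5 or 5), the filter (none, or a mean of 50), the scaling (quantile, TMM, or chromosome medians removed) or the model (edgeR 4.0.16 or DESeq2 1.42.0 on recovered reads, a replicate block, 2 groups alone), or left out each library. The 9 genes and all lists were chosen with earlier results of these data known. Of each list, the genes named are the up to 4 called ones with the smallest p per comparison. Some genes named once are also given in other comparisons, but most are not given in all of them. Some genes that this rule or the marker lists hold are not reported here.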

Additional observations from a re-analysis of the deposited data

How the results depend on the processing

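Of 918 values of the 9 genes under alternatives, 902 kept their side of the threshold, 14 lost their call, 1 gained one and 1 reversed. A reversal was counted only where the value was called in the main fit or under the alternative. Uncalled values near no change could therefore switch sign among the 902, as that of Irf3 did in dKO against Actr3 KO (main 0.027, lowest -0.026). The reversed one is Stat2 in dKO against Actr3 KO, at -0.071 with chromosome medians removed (adjusted p from 1.12e-06 to 0.324 over its settings). Leaving out each library gave 2 to 4 of the 9 called in dKO against Actr3 KO, 9 to 9 in Actr3 KO against control and 8 to 9 with ciliobrevin D. Over its settings, the adjusted p ran from 0.00411 to 0.0690 for Dhx58 and from 0.00546 to 0.127 for Irf7 in dKO against Actr3 KO, and from 0.00485 to 0.106 for Irf9 with ciliobrevin D. In the treated cells against dKO it ran from 0.00503 to 0.0592 for Dhx58, from 0.00793 to 0.266 for Irf9 and, with chromosome medians removed as its only loss, up to 0.125 for Ifnar1. The cause was not tested. No count of called genes over the whole table moved by over 1.5 times, while that of the 9 genes in dKO against Actr3 KO went from 4 to 2 without dKO replicate 2. On the recovered reads, edgeR called 9856 genes for Actr3 KO against control, 9236 for dKO against Actr3 KO and 9143 for ciliobrevin D against none, where limma called 9724, 9164 and 9136, and edgeR and DESeq2 each called as many of the 9 genes as limma in all 6 comparisons.

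Same-numbered libraries did not deviate together (15 pairs, r from -0.04 to 0.07, none over 0.1), so the numbers were not taken as pairs. With the replicate number as a block, the calls were 9080 genes for Actr3 KO against control and 9158 for dKO against Actr3 KO, among them 9 and 4 of the 9 genes, with no call of these 9 changed.

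Dhx58 rests on 137 to 400 reads per group. Each group has 3 libraries, per the labels of 1 line, with the control column named Ctrl.-2 as an exception.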
